A study of Mus musculus with 2 samples.

Results

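The genes described here are 45 that copy DNA or supply its building blocks, found by symbol among the 31053 genes listed in both count matrices. They were handled as 16 genes of origin licensing, 24 genes of the replication fork and 5 genes of nucleotide synthesis. Each was read in dendritic cells that carried proliferation transcripts and in cells that carried none, in 2 single-cell libraries from mouse spleen. Both libraries came from naive Il7r-cre; Rosa26-lsl-tdTomato mice of 7 to 9 weeks, in which cells that have expressed Cre from the Il7r locus, and their progeny, are marked by tdTomato. Cells were pulled down by CD11c on beads before flow sorting: the L-cDC library holds tdTomato-positive and the M-cDC library tdTomato-negative conventional dendritic cells. Neither the number of animals nor a replicate is given, so each origin is 1 library. No test between origins was possible; the intervals printed are exact 95% intervals that cover counting error only.

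Replication origins are licensed before S phase, when the origin recognition complex (Orc1 to Orc6), Cdc6 and Cdt1 load the Mcm2 to Mcm7 helicase onto DNA, and geminin (Gmnn) binds Cdt1 to prevent a repeat round. In S phase Cdc45 and the GINS complex activate the helicase, polymerases and their clamp build the new strands, and ribonucleotide reductase, thymidylate synthase and related enzymes supply deoxynucleotides. Conventional dendritic cells arise from dividing precursors, and some divide within the spleen, whereas mature Ccr7+ dendritic cells are mostly non-dividing.

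Many of these genes are textbook targets of E2F transcription factors, so their promoters were read for the 4 words TTTCCCGC, TTTCGCGC, TTTGCCGC and TTTGGCGC on either strand, some of which overlap each other. RefSeq promoters of build GRCm38.p6, from 250 bases before to 50 after the start, were found for 37 of the 45 genes. A word was present in 13 of those 37 (35.1%) and in 626 of 27025 promoters of all genes (2.32%). By role it was present in 8 of 14 licensing, 5 of 18 fork and 0 of 5 nucleotide promoters. The last count says only that these letters are not in those windows. The CCAAT box was present in 23 of 37 (62.2%, against 37.9% of all promoters), and the word TTTGAA of the cell-cycle homology region in 4 of 37 (10.8%, against 18.1%). The 160 bases before the RefSeq start used are shown for 5 genes whose transcripts differed in behaviour below. They are given in the gene's direction, with E2F words in capitals. Mcm5 (chr8:75109349-75109508, + strand) and Mcm6 (chr1:128359706-128359865, - strand) are helicase subunits in which words on both strands run into each other. Cdc6 (chr11:98907991-98908150, + strand) and Gins3 (chr8:95633399-95633558, + strand) each have 1 word on the other strand. Orc4 (chr2:48950082-48950241, - strand) has none. The start is the first RefSeq one listed per gene, of 3 for Orc4 and 1 for the others shown. By GENCODE positions the Orc4 and Cdc6 stretches lie inside the genes (chr2:48902824-48950277 and chr11:98907801-98923940). That of Gins3 lies partly inside its gene, which begins at 95633453. The words found or missing therefore hold for these windows only.
Mcm5: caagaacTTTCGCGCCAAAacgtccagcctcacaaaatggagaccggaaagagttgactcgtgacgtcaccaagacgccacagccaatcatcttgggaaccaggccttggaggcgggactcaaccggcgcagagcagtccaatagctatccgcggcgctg
Mcm6: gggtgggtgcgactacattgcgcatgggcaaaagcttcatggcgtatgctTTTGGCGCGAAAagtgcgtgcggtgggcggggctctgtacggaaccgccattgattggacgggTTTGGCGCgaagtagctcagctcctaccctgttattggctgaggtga
Cdc6: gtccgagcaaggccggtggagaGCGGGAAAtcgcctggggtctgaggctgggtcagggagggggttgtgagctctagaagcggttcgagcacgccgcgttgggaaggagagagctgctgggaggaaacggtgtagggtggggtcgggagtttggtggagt
Gins3: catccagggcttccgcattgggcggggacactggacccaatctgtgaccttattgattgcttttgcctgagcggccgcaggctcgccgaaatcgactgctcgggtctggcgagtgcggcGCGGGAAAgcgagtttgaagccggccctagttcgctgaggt
Orc4: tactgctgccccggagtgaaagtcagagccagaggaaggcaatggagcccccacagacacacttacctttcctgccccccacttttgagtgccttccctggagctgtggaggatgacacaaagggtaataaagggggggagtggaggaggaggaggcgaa
The Cdc6 and Gins3 promoters hold the same word, TTTCCCGC read from the other strand, although Cdc6 was among the genes with the widest gap between cycling and non-cycling cells and Gins3 had none over all cells. Over the genes with enough UMIs, 9 of 12 with a word and 22 of 24 without were at least 1.5-fold higher in cycling cells of L-cDC, against 26.6% of all genes. In M-cDC these were 10 of 12 and 22 of 24, against 27.3%. Median log2 ratios of cycling over non-cycling cells lay close, at 2.98 with and 2.77 without a word in L-cDC. In M-cDC they were 3.03 and 3.07.

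The matrices held 4939 barcodes and 40170515 UMIs in L-cDC and 6674 barcodes and 52973960 UMIs in M-cDC. Of these barcodes 6 occurred in both, 3 of them among the cells described. After filtering, 3697 L-cDC and 5572 M-cDC cells were described, with medians of 8638 and 7666.5 UMIs. The label of conventional dendritic cell was checked against markers: 3093 L-cDC and 3558 M-cDC cells were mature Ccr7+-like, 231 and 804 cDC1-like, 162 and 610 cDC2-like, and 211 and 600 had no class. These classes are cuts on numbers of detected markers, and 252 (6.82%) and 682 (12.2%) cells led by a single marker. Another 246 L-cDC and 28 M-cDC cells carried 3 or more markers of another lineage and were left out. The 45 genes supplied 23764 UMIs (0.0694% of all) in L-cDC and 50692 (0.106%) in M-cDC.

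A cell was called cycling when it held at least 2 UMIs of Mki67 and Top2a together, which are markers of dividing cells outside the 45, and non-cycling when it held none. In L-cDC 165 of 3697 cells were cycling (4.46%, 3.82 to 5.18), and in M-cDC 441 of 5572 (7.91%, 7.22 to 8.65). A further 275 and 451 cells with 1 UMI were put in neither set. After each cell was thinned to 3000 UMIs the shares were 1.98% and 4.27%, with 314 and 275 shallower cells left out. By class, 13.4% of cDC1-like cells were called cycling in L-cDC and 18.7% in M-cDC, 10.5% and 11.1% of cDC2-like cells, and 3.27% and 4.05% of mature cells. These cycling cells were not alike. At least 10 of the 45 genes were detected in 77.4% and 80.7% of the cDC1-like and 88.2% and 82.4% of the cDC2-like ones. Among the mature ones the shares were 25.7% and 31.3%. Their median depths were 22340 and 19865 UMIs (cDC1-like), 16758 and 13051 (cDC2-like), and 11309 and 9426.5 (mature). Mature cells made up 101 of the 165 cycling cells of L-cDC but 144 of the 441 of M-cDC. Cycling cells were deeper than non-cycling cells, with medians of 13074 against 8401 UMIs in L-cDC and 13610 against 7298 in M-cDC.

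The cycling set was a mixture. Cells with exactly 2 marker UMIs, 53 in L-cDC and 115 in M-cDC, held a median of 5 and 6 UMIs of the 45 genes, close to the 4 and 3 of cells with none. Cells with 6 or more marker UMIs, 74 and 240, held medians of 69.5 and 90 UMIs from 26.5 and 29 of the 45 genes. Their depths also differed: medians were 10235 and 9887 UMIs at 2 marker UMIs, and 17604.5 and 16386 at 6 or more. As a share of all UMIs, which does not grow with depth, the genes went from 0.0517% with no marker UMI to 0.0891% at 2 and 0.401% at 6 or more in L-cDC, and from 0.0557% to 0.143% and 0.526% in M-cDC.

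**Figure D1:**
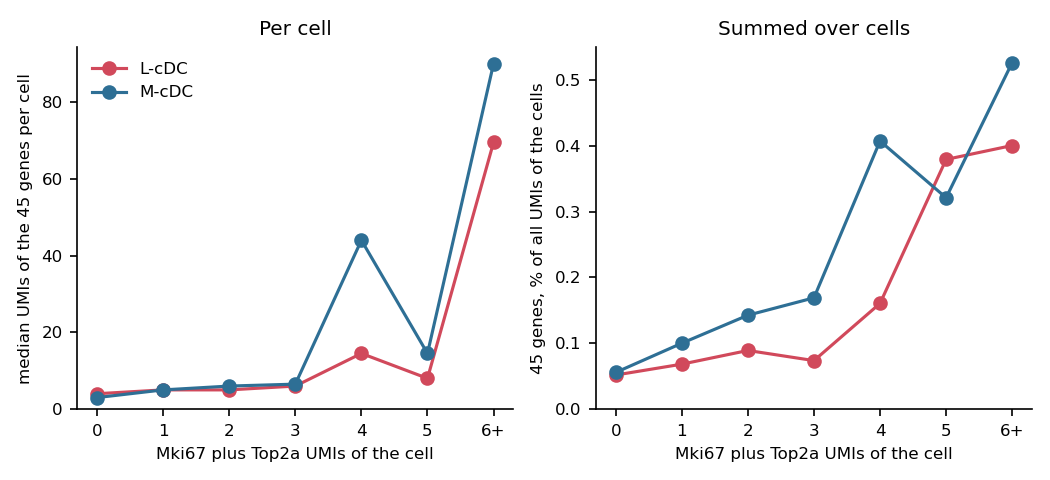
UMIs of the 45 genes against the UMIs of Mki67 plus Top2a in the same cell (x axis, last point 6 or more), as the median per cell (left) and as a percent of all UMIs of those cells (right), for L-cDC (red) and M-cDC (blue). The median per cell is 5 and 6 at 2 marker UMIs and reaches 69.5 and 90 at 6 or more, and the percent reaches 0.401 and 0.526.

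Transcripts of nearly all the genes were more abundant in cycling than in non-cycling cells of both libraries. UMIs of each set were summed and divided by all UMIs of the set (CPM, per 1000000 UMIs). Together the 45 genes reached 2850 CPM in cycling and 517 CPM in non-cycling cells of L-cDC, and 4071 and 557 CPM in M-cDC. Of 44 genes with at least 50 UMIs over the sets, 39 were at least 1.5-fold higher in cycling L-cDC cells, against 26.6% of all genes considered. In M-cDC 40 of 44 were, against 27.3%. None was 1.5-fold lower, against 15% and 16.6% of all genes. The rule that formed the sets used Mki67 and Top2a alone, so these counts describe cells chosen by other transcripts of the same process.

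**Figure D2:**
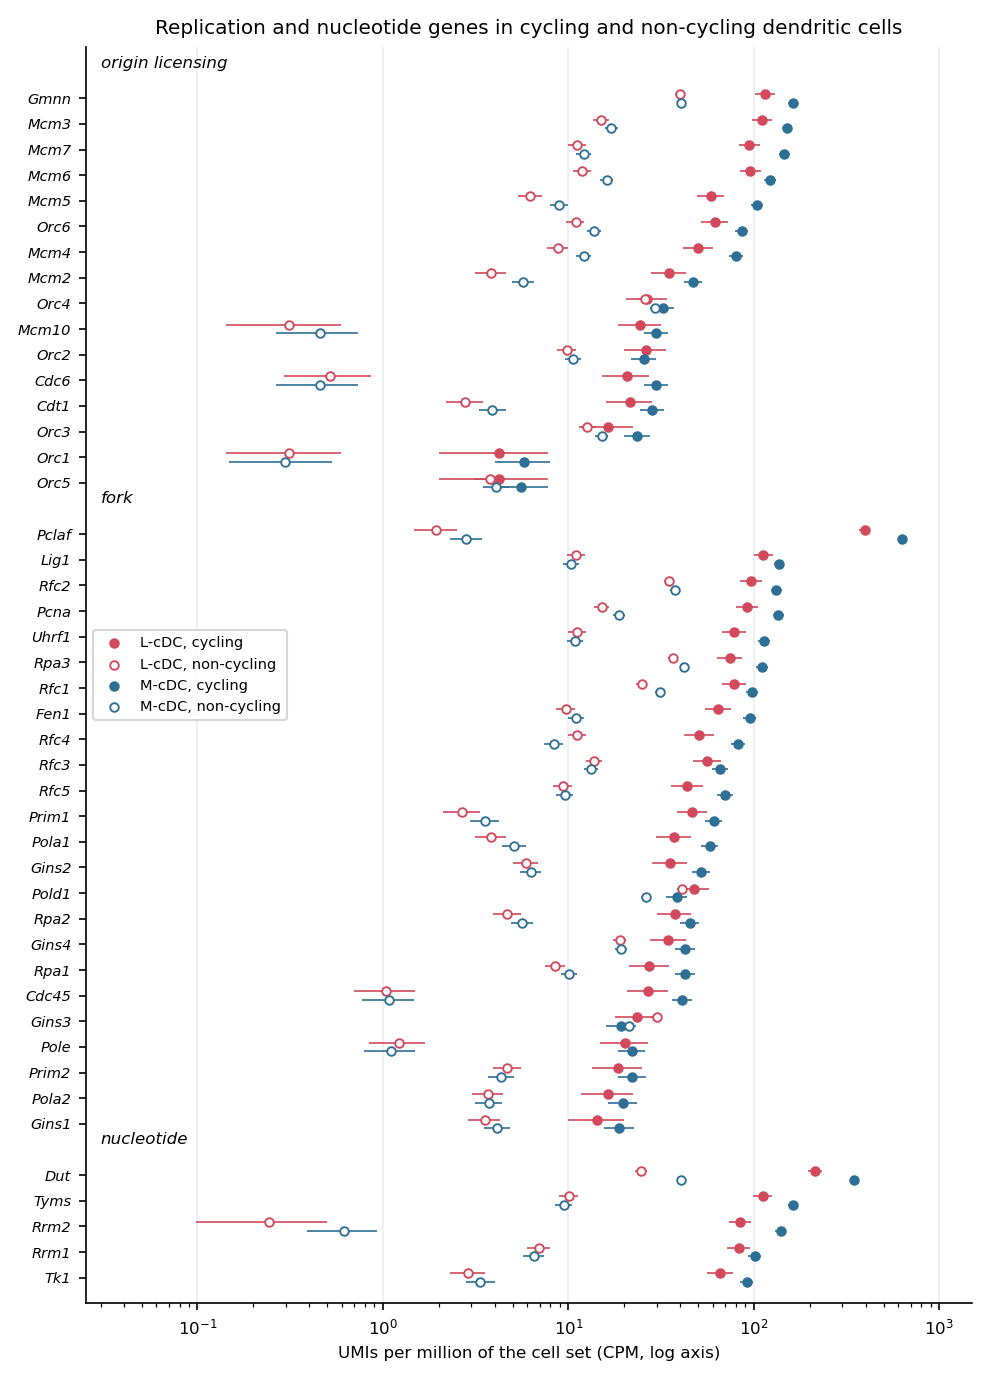
CPM (log axis) of each of the 45 genes in cycling (filled) and non-cycling (open) cells of L-cDC (red) and M-cDC (blue), by role, with exact 95% Poisson intervals as lines. Filled points lie right of open points for most genes, while those of Orc4, Orc5, Gins3 and Pold1 lie less than 1.5-fold apart in both libraries.

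Among licensing genes the median log2 ratio of cycling over non-cycling cells was 2.88 in L-cDC and 2.86 in M-cDC, against 0.15 over all genes in each library. Mcm3, a helicase subunit, had 111 CPM in cycling and 15.02 CPM in non-cycling L-cDC cells, and 151 and 17.04 CPM in M-cDC, which is 7.36-fold (6.29 to 8.60) and 8.83-fold (7.98 to 9.78). For its partner Mcm6 the levels were 95.9 and 11.9 CPM in L-cDC, with 122 and 16.0 CPM in M-cDC, or 8.08-fold (6.80 to 9.58) and 7.60-fold (6.82 to 8.48). Mcm7 had 94.6 and 11.2 CPM in L-cDC, and 146 and 12.1 CPM in M-cDC, or 8.47-fold (7.11 to 10.1) and 12.1-fold (10.8 to 13.5). The 6 helicase subunits spanned 5.72-fold (Mcm4) to 9.41-fold (Mcm5) in L-cDC and 6.64-fold (Mcm4) to 12.1-fold (Mcm7) in M-cDC, so all 6 went the same way by a like size.

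The loading factors parted company. Cdc6, which brings the helicase to the origin, was almost absent outside cycling cells, at 0.520 CPM against 20.6 CPM in L-cDC (39.6-fold, 21.8 to 76.0) and 0.456 against 29.8 CPM in M-cDC (65.2-fold, 39.7 to 114). Mcm10, a factor in helicase activation, behaved in the same way at 78.1-fold and 65.2-fold. Cdt1 was 7.73-fold and 7.28-fold higher, though its gene shares its strand with an overlapping gene model, Gm20388, so its counts are uncertain. Pclaf, Orc2, Gins2, Tk1 and others overlap genes on the opposite strand, and how strand entered the counting is not given in the sources used here. Mcm2 was 9.15-fold and 8.25-fold higher, within the range of its fellow subunits. Orc6 was 5.62-fold and 6.24-fold higher and Orc2 2.66-fold and 2.41-fold.

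The other origin recognition subunits with enough UMIs stood nearer to level. Orc4 had 26.5 CPM in cycling and 26.0 CPM in non-cycling L-cDC cells, a ratio of 1.02 (0.775 to 1.32), and 32.3 and 29.4 CPM in M-cDC, a ratio of 1.10 (0.942 to 1.28). For Orc5 the ratios were 1.11 (0.519 to 2.12) and 1.37 (0.917 to 1.98), from 10 and 35 UMIs in cycling cells. Orc3 was at 1.295 (0.906 to 1.805) and 1.56 (1.29 to 1.87). Orc1 had only 19 UMIs over the L-cDC sets and 47 over the M-cDC sets and was not counted; its CPM was 4.204 against 0.312 in L-cDC and 5.73 against 0.295 in M-cDC. Geminin (Gmnn) was also well detected without cycling: 115 CPM in cycling and 40.1 CPM in non-cycling L-cDC cells, and 163 and 40.4 CPM in M-cDC, or 2.88-fold (2.51 to 3.28) and 4.04-fold (3.73 to 4.38).

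Fork genes had median log2 ratios of 2.21 in L-cDC and 2.87 in M-cDC, and 22 of 24 passed 1.5-fold in each. Pclaf, a small protein that binds the sliding clamp, showed one of the widest gaps: 396 against 1.94 CPM in L-cDC (204-fold, 155 to 272) and 630 against 2.82 CPM in M-cDC (223-fold, 184 to 274). In non-cycling cells it was close to absent in both libraries. Pcna, the clamp itself, was 6.06-fold and 7.24-fold higher, at 91.7 against 15.1 CPM in L-cDC, with 135 against 18.7 CPM in M-cDC. A pseudogene of Pcna, Pcna-ps2, held 18 and 19 UMIs in all cells. Lig1, the ligase that joins Okazaki fragments, was 10.2-fold (8.68 to 12.1) and 13.3-fold (11.7 to 14.997) higher, from 11.0 to 113 CPM in L-cDC and from 10.3 to 137 CPM in the other library. The initiator subunits Prim1 and Pola1 were 17.5-fold and 9.70-fold higher for L-cDC and 17.1-fold and 11.4-fold for M-cDC.

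Uhrf1, Fen1, the Rpa genes, Pola2 and Prim2 were also higher. Uhrf1, which recognises hemimethylated DNA behind the fork, stood at 78.2 against 11.1 CPM in L-cDC (7.02-fold, 5.83 to 8.44), and at 113 against 10.8 CPM in M-cDC (10.4-fold, 9.21 to 11.8). The flap nuclease Fen1 was 6.62-fold and 8.61-fold higher. Replication protein A, which coats single-stranded DNA, had 3.23-fold and 4.24-fold for Rpa1, 7.99-fold and 8.02-fold for Rpa2, and 2.03-fold and 2.65-fold for Rpa3. The accessory subunits of primase and polymerase alpha, Pola2 and Prim2, had smaller ratios than Pola1 and Prim1, at 4.46-fold and 3.95-fold for L-cDC and 5.29-fold and 5.09-fold for M-cDC.

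Cdc45, which activates the helicase, was at 26.9 against 1.04 CPM in L-cDC (25.9-fold, 16.5 to 41.3) and at 41.1 against 1.07 CPM in M-cDC (38.2-fold, 27.3 to 54.8). Its partners in the GINS complex, which acts as a unit of 4 proteins, ranged far below it. Gins2 was 5.99-fold and 8.27-fold higher, Gins1 4.04-fold and 4.54-fold, and Gins4 1.83-fold and 2.22-fold. Gins3 had 23.5 CPM in cycling and 29.9 CPM in non-cycling L-cDC cells (ratio 0.787, 0.590 to 1.03) and 19.3 and 21.1 CPM in M-cDC (0.912, 0.746 to 1.11). Pold1, the catalytic subunit of polymerase delta, also stayed under 1.5-fold. It was near level in L-cDC, at 47.5 against 40.8 CPM (1.16, 0.952 to 1.41). In M-cDC it was higher in cycling cells, at 38.3 against 26.3 CPM (1.46, 1.26 to 1.68), with an interval that left out 1. Pole, the catalytic subunit of polymerase epsilon, was 16.6-fold and 19.96-fold higher. The clamp loader is a ring of 5 subunits that opens the clamp. Rfc2 had 96.7 CPM in cycling and 35.0 CPM in non-cycling L-cDC cells (2.76-fold, 2.38 to 3.19), and 132 and 37.3 CPM in M-cDC (3.53-fold, 3.24 to 3.85). The subunits ran from 2.76-fold (Rfc2) to 4.69-fold (Rfc5) in L-cDC and from 3.15-fold (Rfc1) to 9.89-fold (Rfc4) in M-cDC.

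All 5 nucleotide genes were higher, with median log2 ratios of 3.59 and 4.11. Rrm2, the subunit of ribonucleotide reductase made in S phase, had 84.5 CPM in cycling and 0.243 CPM in non-cycling L-cDC cells (348-fold, 166 to 877) and 140 and 0.617 CPM in M-cDC (226-fold, 150 to 359). Only 7 and 23 UMIs stood in the non-cycling sets. Its partner subunit Rrm1 was 12.1-fold and 15.5-fold higher, at 83.2 against 6.90 CPM and 101 against 6.495 CPM. Thymidine kinase (Tk1) was 22.8-fold and 27.2-fold higher. Thymidylate synthase (Tyms) was 11.1-fold (9.37 to 13.2) and 17.2-fold (15.3 to 19.5) higher, from 10.0 to 111 CPM and from 9.47 to 163 CPM. Dut, which removes dUTP, had 213 against 24.8 CPM in L-cDC and 346 against 40.3 CPM in M-cDC, and was 8.59-fold (7.65 to 9.64) and 8.57-fold (8.02 to 9.16) higher.

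Levels of Gins3 and Pold1 differed more between classes of cells than between cycling states. Among non-cycling cells Gins3 had 35.6 CPM in mature, 10.2 CPM in cDC2-like and 2.34 CPM in cDC1-like cells of L-cDC, and 31.4, 6.83 and 2.46 CPM in M-cDC. Mature over cDC1-like cells this was 15.2-fold (6.94 to 41.5) and 12.7-fold (8.10 to 21.3). For Pold1 the levels were 47.9, 15.9 and 6.25 CPM in L-cDC and 35.0, 14.4 and 7.39 CPM in M-cDC, or 7.66-fold (4.70 to 13.5) and 4.74-fold (3.62 to 6.31). Without mature cells, Gins3 was higher in cycling cells by 3.08-fold (1.69 to 5.50) in L-cDC and 3.39-fold (2.47 to 4.66) in M-cDC, and Pold1 by 3.88-fold (2.59 to 5.79) and 3.09-fold (2.51 to 3.79). Orc4 stayed level in those cells at 0.844 (0.538 to 1.28) and 1.03 (0.850 to 1.24).

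Uhrf1 and Gmnn were also higher in mature cells. Uhrf1 had 12.6 CPM in mature and 3.13 CPM in cDC1-like non-cycling L-cDC cells (4.02-fold, 2.01 to 9.39), and 14.3 and 4.28 CPM in M-cDC (3.35-fold, 2.34 to 4.95). Gmnn had 44.9 and 18.8 CPM in L-cDC (2.39-fold, 1.79 to 3.27) and 49.6 and 27.5 CPM in M-cDC (1.804-fold, 1.56 to 2.10). Mcm6 went the other way, with 9.73 CPM in mature and 21.1 CPM in cDC1-like L-cDC cells, and 8.81 and 27.5 CPM in M-cDC. Mcm7 and Mcm4 did so past 1.5-fold in M-cDC and not in L-cDC, a difference that was not tested: the ratios of mature over cDC1-like cells were 1.08 (0.714 to 1.70) for Mcm7 and 0.803 (0.527 to 1.27) for Mcm4 in L-cDC, and 0.632 (0.501 to 0.801) and 0.550 (0.436 to 0.696) in M-cDC. Rfc1, the large clamp loader subunit, had 17.7 and 48.5 CPM in L-cDC and 16.2 and 56.5 CPM in M-cDC.

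Over the genes as a whole, 8 of 38 were at least 1.5-fold higher and 13 lower in mature than in cDC1-like non-cycling L-cDC cells, against 29.4% and 27.1% of all genes. In M-cDC 4 of 39 were higher and 21 lower, against 27.5% and 30.6%. The classes differ in depth, with medians of 8114 and 6789.5 UMIs in mature and 15435 and 13615.5 in cDC1-like non-cycling cells; its part in these counts was not tested.

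**Figure D3:**
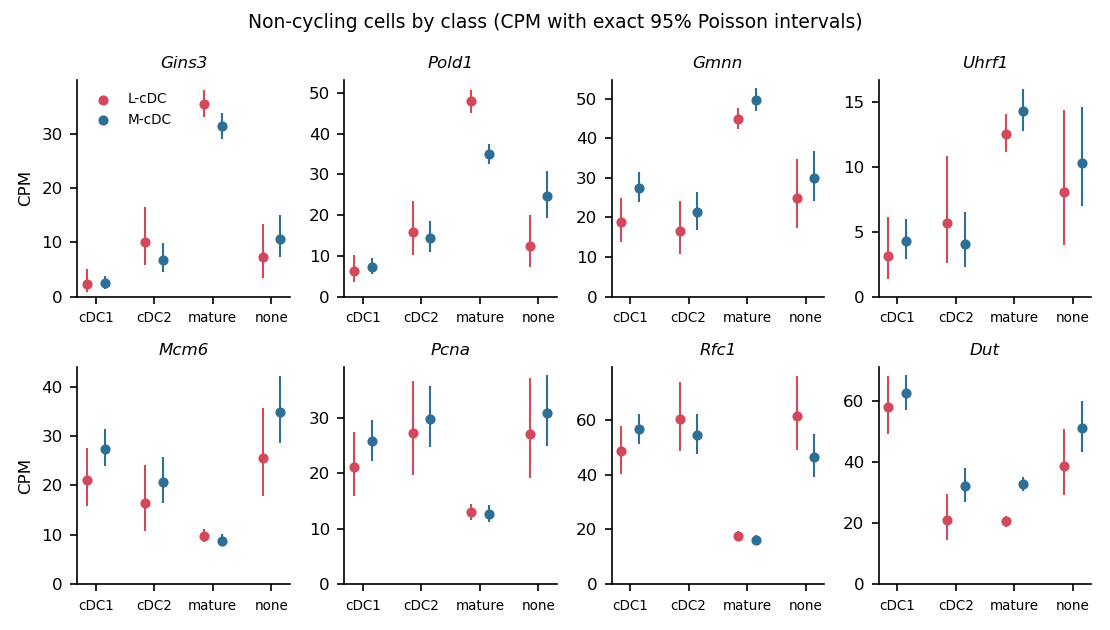
CPM of 8 genes in non-cycling cells by class (x axis: cDC1-like, cDC2-like, mature Ccr7+-like, no class) in L-cDC (red) and M-cDC (blue), with exact 95% Poisson intervals as lines. Gins3, Pold1, Gmnn and Uhrf1 are higher in mature than in cDC1-like cells of both libraries, Mcm6, Pcna and Rfc1 are lower, and Dut is lower with L-cDC below M-cDC in mature cells (20.5 and 32.7 CPM).

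Between origins, cycling L-cDC cells held less of these transcripts than cycling M-cDC cells. Their summed level was 2850 against 4071 CPM. Of 43 genes considered, 11 were at least 1.5-fold lower in L-cDC, against 9.25% of all genes, and 0 were higher, against 7.21%. The median log2 ratio was -0.48, against -0.11 over all genes. The 11 were the helicase subunits Mcm4, Mcm5 and Mcm7, the fork genes Cdc45, Rfc4, Rfc5, Pola1, Rpa1 and Pclaf, and the nucleotide genes Rrm2 and Dut.

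Mcm5 was lower by 1.78-fold (1.48 to 2.15), at 58.4 against 104 CPM. For Rrm2 the difference was 1.65-fold (1.42 to 1.93), at 84.5 against 140 CPM, and for Dut 1.63-fold (1.47 to 1.79), at 213 against 346 CPM. Pclaf was lower by 1.59-fold (1.48 to 1.71), at 396 against 630 CPM, and Mcm7 by 1.55-fold (1.33 to 1.797), at 94.6 against 146 CPM. The other 6 had lower levels and lay between 1.53-fold (Cdc45) and 1.62-fold (Rfc4).

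Mcm4 had 50.03 against 80.2 CPM (1.60-fold, 1.31 to 1.97). Rfc4 had 50.9 against 82.3 CPM (1.62-fold, 1.32 to 1.99), and Rfc5, in the same clamp loader, 43.7 against 69.9 CPM (1.598-fold, 1.29 to 1.998). Pola1 had 37.0 against 57.9 CPM (1.57-fold, 1.24 to 1.999). Pola1 is the catalytic subunit of the polymerase that starts each new strand; Rpa1 coats single-stranded DNA, and Cdc45 is part of the active helicase. Rpa1 had 27.3 against 42.6 CPM (1.56-fold, 1.19 to 2.08) and Cdc45 26.9 against 41.1 CPM (1.53-fold, 1.16 to 2.04). Just short of 1.5-fold were Rpa3 at 1.499-fold, Fen1 and Pcna at 1.48-fold and Tyms at 1.47-fold.

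That gap moved with the makeup of the cycling sets. Mature cells had the lower summed level among cycling cells, at 1693 CPM for L-cDC against 2751 CPM for M-cDC, compared with 3594 and 3918 CPM in cDC1-like and 4532 and 5394 CPM in cDC2-like cells. In each of these classes L-cDC was the lower, with intervals of counting error that lay apart. They were 3452 to 3741 against 3847 to 3990 CPM in cDC1-like and 4284 to 4792 against 5241 to 5550 CPM in cDC2-like cells. In cycling cells without a class the intervals met, at 4471 to 5040 against 5034 to 5311 CPM. Variation between cells is not in these intervals, and the cDC2-like sets held only 17 and 68 cells. Whether the origins differ within a class was not tested. Without mature cells 0 of 43 genes were 1.5-fold lower, against 6.56% of all genes, and the median log2 ratio was -0.12. In cDC1-like cells alone 2 of 42 were lower and 1 higher, against 8.76% and 3.58%, over 31 and 150 cells. With cycling set at 5 or more marker UMIs 5 of 43 were lower and 0 higher, against 7.14% and 7.78%, with a median of -0.32. With the other-lineage cells put back, 0 of 44 were lower, against 6.64%. That added 39 cells to the cycling set of L-cDC and 0 to that of M-cDC. Of the 39, 25 carried NK and 9 T cell markers, and the 45 genes summed to 4914 CPM in them. This setting therefore does not describe dendritic cells alone. T cell markers summed to 15.1 CPM in cycling cells of L-cDC and 0.796 CPM in M-cDC, with Cd3e and Cd3g at 0 in both, and NK markers to 10.9 and 4.61 CPM with Prf1 and Eomes at 0 in both. Macrophage markers summed to 34.5 against 13.05 CPM with Cd5l at 0 in both, pDC markers to 209 against 130 CPM, and the erythroid list to 127 against 36.9 CPM with Hba-a1, Hbb-bs and Klf1 at 0 in both. B cell markers stood at 20.2 and 19.6 CPM, plasma cell markers at 45.4 and 64.3 CPM, and neutrophil markers at 0.420 and 0.477 CPM with S100a8, S100a9 and Retnlg at 0 in both. The part of any of these lists in the gap was not tested.

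Single genes were also read within the classes. Pclaf had 195 CPM (171 to 221) in mature cycling cells of L-cDC and 427 CPM (393 to 462) in those of M-cDC. In cDC1-like cycling cells it had 530 CPM (476 to 588) and 559 CPM (533 to 587), which overlap. In cDC2-like cells it had 740 CPM (642 to 849) and 978 CPM (913 to 1046), which lie apart. Mcm5 had 29.0 and 57.6 CPM in mature cells and 86.5 CPM (65.7 to 112) and 117 CPM (105 to 130) in cDC1-like cells.

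Rrm2 had 56.4 and 117 CPM in mature cells, 107 and 111 CPM in cDC1-like cells and 157 and 228 CPM in cDC2-like cells, the first of each pair from L-cDC. For Dut these were 95.4 and 211 CPM, 315 and 346 CPM, and 328 and 428 CPM. In both genes the intervals overlapped between the origins in cDC1-like cells and lay apart in mature cells. These intervals too leave out variation between cells. Among mature cycling cells, 26 of the 101 from L-cDC, against 45 of the 144 from M-cDC, held 10 or more of the 45 genes (25.7% and 31.3%), at median depths of 11309 and 9426.5 UMIs.

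**Figure D4:**
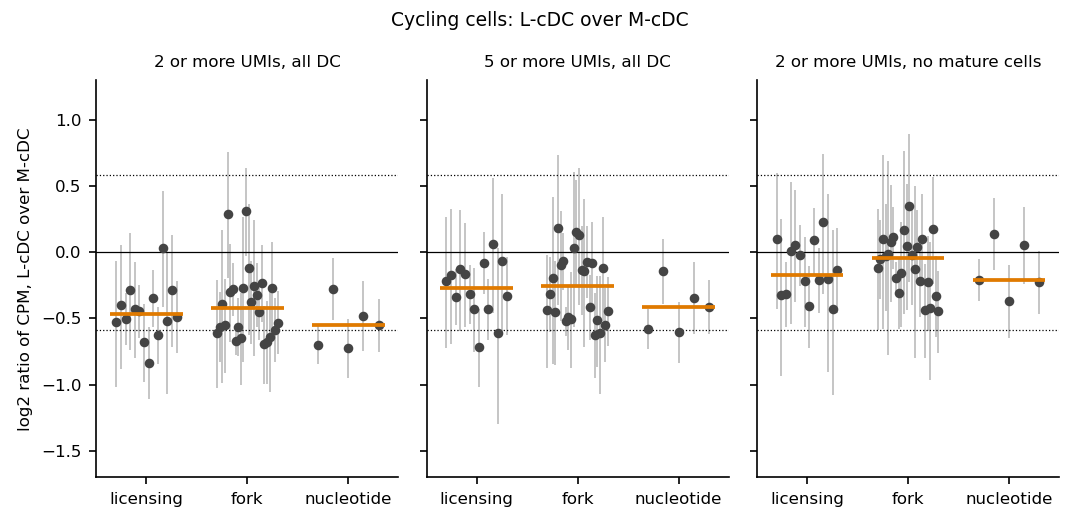
Log2 ratio of L-cDC over M-cDC for each gene considered (points, with exact 95% intervals as lines) in cycling cells, by role, with each role's median as a bar and dotted lines at 1.5-fold; panels give 2 or more marker UMIs, 5 or more, and 2 or more without mature cells. Bars of licensing, fork and nucleotide genes lie at -0.47, -0.42 and -0.55 on the left and at -0.17, -0.040 and -0.21 on the right.

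Over all non-cycling cells few genes differed by 1.5-fold between origins. Summed levels were 517 CPM for L-cDC against 557 CPM for M-cDC, and of 41 genes 1 was 1.5-fold higher and 1 lower, against 6.1% and 7.45% of all genes. The higher gene was Pold1, at 40.8 against 26.3 CPM (1.55-fold, 1.43 to 1.69). Within mature cells it had 47.9 against 35.0 CPM, whereas without mature cells it had 10.5 against 12.8 CPM, on the other side of 1. Dut was the lower gene, at 24.8 against 40.3 CPM (1.63-fold lower, 1.49 to 1.78). It had 20.5 against 32.7 CPM within mature cells and 58.2 against 62.6 CPM within cDC1-like cells.

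Within cDC1-like cells more genes were lower in L-cDC than over all non-cycling cells. In cDC1-like non-cycling cells, 169 against 568, the summed level was 504 against 628 CPM, and 8 of 33 genes were 1.5-fold lower and 0 higher, against 4.16% and 2.36% of all genes. Rfc3 had 4.298 against 12.4 CPM there (2.90-fold lower, 1.55 to 5.99), Orc6 10.6 against 19.6 CPM (1.86-fold, 1.23 to 2.91) and Mcm2 5.47 against 10.1 CPM (1.85-fold, 1.04 to 3.54). These 3 rest on 11, 27 and 14 UMIs in L-cDC, and were picked after their values were seen. In mature cells the sums were 510 against 503 CPM. The cDC1-like non-cycling sets also differed in traces of division. Cells with 10 or more of the described genes detected made up 8.88% (5.05 to 14.2) in L-cDC and 15.3% (12.5 to 18.5) in M-cDC. Genes of G2 and mitosis, used in the split below, summed to 49.2 CPM (41.0 to 58.6) and 68.5 CPM (62.7 to 74.6). The part of such cells in the lower levels of L-cDC was not tested.

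Cycling cells were next split at each library's median share of UMIs from 25 genes of G2 and mitosis, none of them among the 45. Under the rule of 2 marker UMIs the low set, with the smaller G2/M share, held less of most genes in L-cDC, where 34 of 37 were 1.5-fold lower against 31% of all genes. In M-cDC 14 of 43 were lower, against 14.9%. None was higher in either library, against 15.1% and 12.5%. That set also took in the cells with few marker UMIs described above. At 5 or more marker UMIs, where 83 and 258 cells remained, the direction turned. There 12 of 33 genes were higher in the low set of L-cDC and 4 lower, against 9.76% and 16.2% of all genes, and 27 of 43 were higher and 0 lower in M-cDC, against 9.04% and 12.4%.

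At 5 or more marker UMIs the medians of the roles differed, with members of the roles overlapping; the difference was not tested. Licensing genes had median log2 ratios of 0.88 in L-cDC and 1.18 in M-cDC, fork genes 0.43 and 0.71, and nucleotide genes -0.65 and 0.08. Mcm6 had 220 CPM in the low and 62.0 CPM in the high set of L-cDC (3.54-fold, 2.55 to 4.98), and 219 and 69.1 CPM in M-cDC (3.17-fold, 2.63 to 3.84). Mcm3 was 3.28-fold and 2.66-fold higher in the low set. In M-cDC, where they had enough UMIs, Cdt1 was 4.39-fold (2.88 to 6.90) and Cdc6 3.64-fold (2.47 to 5.46) higher.

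Rrm2 did not follow the helicase. It had 96.4 CPM in the low and 163 CPM in the high set of L-cDC (ratio 0.593, 0.434 to 0.805), and 204 and 198 CPM in M-cDC (1.03, 0.897 to 1.18). Tk1 had 63.8 and 127 CPM in L-cDC, and 128 and 121 CPM in M-cDC. For Pclaf the levels were 466 and 731 CPM in L-cDC, and 910 and 845 CPM in M-cDC. Pcna was higher in the low set by 1.69-fold (1.25 to 2.30) and 2.24-fold (1.91 to 2.63), and so was Dut, by 1.29-fold (1.06 to 1.56) and 1.82-fold (1.66 to 2.002). Whether the nucleotide genes differ between the libraries in this split was not tested.

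**Figure D5:**
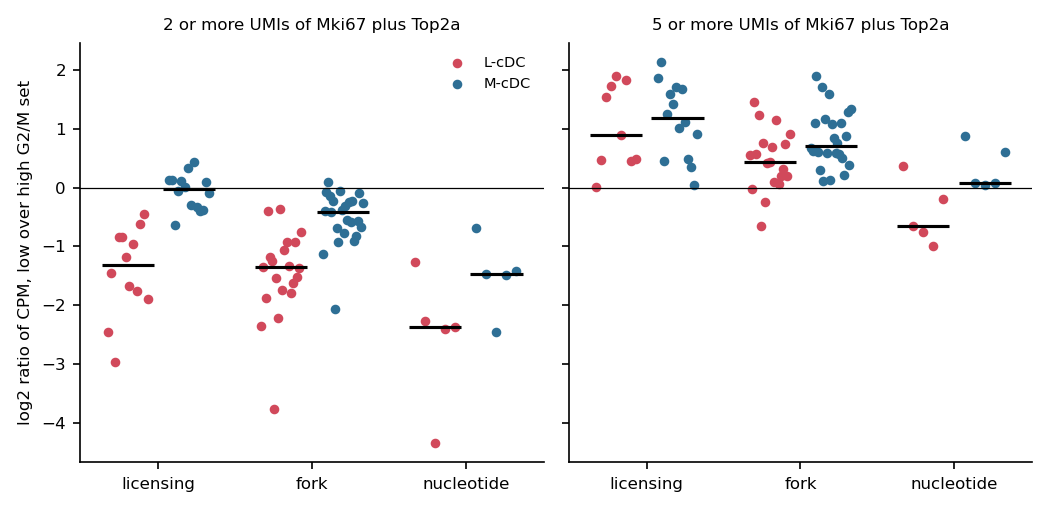
Log2 ratio of the low over the high G2/M set of the cycling cells for each gene considered (points) by role, in L-cDC (red) and M-cDC (blue), with medians as bars; the left panel takes cells with 2 or more marker UMIs and the right panel cells with 5 or more. Medians of the licensing genes are 0.88 and 1.18 on the right, and those of the nucleotide genes -0.65 and 0.08.

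Other genes of the same pathways, outside the 45, were read in cycling over non-cycling cells, where 26.6% and 27.3% of all genes were 1.5-fold higher and 15% and 16.6% lower. Of fork and chromatin genes 28 of 30 were 1.5-fold higher in L-cDC, as were 29 of 31 in the other library. Esco2, the cohesin acetyltransferase of S phase, was 151-fold and 292-fold higher, the histone chaperone Asf1b 27.2-fold and 38.7-fold, and the checkpoint mediator Clspn 18.6-fold and 21.2-fold. Genes of deoxynucleotide supply and removal were mixed, with 7 of 14 higher and 1 lower in L-cDC, against 9 of 15 higher and 1 lower in M-cDC. The salvage kinase Dck and the pyrophosphatase Dctpp1 were 8.50-fold and 7.25-fold higher in L-cDC, with 8.07-fold and 6.24-fold in M-cDC.

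The gene that was lower was Samhd1, which degrades deoxynucleotides: 235 CPM in cycling and 387 CPM in non-cycling L-cDC cells (ratio 0.607, 0.557 to 0.661), and 229 and 381 CPM in M-cDC (0.5999, 0.568 to 0.633). Without mature cells the ratios were 0.638 (0.542 to 0.748) and 0.668 (0.622 to 0.717). Of base synthesis genes 12 of 17 and 16 of 19 were higher, with Ctps, which makes CTP, at 7.54-fold and 5.71-fold and Umps, which makes UMP, at 6.59-fold and 5.16-fold. Shmt2, a mitochondrial enzyme of folate metabolism, was at 4.13-fold and 3.70-fold. Of genes controlling entry into S phase 15 of 21 were higher and 2 lower in L-cDC, and 15 of 22 higher and 3 lower in M-cDC, so that the lower counts were no larger a share than over all genes. E2f8 was 53.3-fold and 36.0-fold higher and the cyclins Ccne1 and Ccne2 22.7-fold and 23.4-fold in L-cDC and 22.2-fold and 54.0-fold in M-cDC. Lower in both were the inhibitor Cdkn1a (0.565 and 0.391) and the pocket protein gene Rbl2 (0.631 and 0.459). Cyclin Ccnd2 was lower past 1.5-fold in M-cDC at 0.377, and was at 0.790 in L-cDC. Mature cells held 2780 of the 3257 non-cycling but 101 of the 165 cycling cells of L-cDC, and 3172 of 4680 but 144 of 441 in M-cDC. Without them Cdkn1a was at 0.695 (0.449 to 1.04) and 0.824 (0.664 to 1.02) and Rbl2 at 0.749 (0.460 to 1.17) and 0.887 (0.695 to 1.12), under the size counted, whereas Ccnd2 was at 0.366 (0.223 to 0.571) and 0.311 (0.240 to 0.398).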

How the data were processed

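Values deposited by the authors are raw UMI counts, genes by barcodes, from Cell Ranger 6.1.2, as given per the file headers. Libraries used a 10x Genomics 3′ kit and an MGI sequencer, per the labels' protocols, and GRCm38 (mm10), per the submitters' processing notes. The deposited files of other content hold gene names and barcodes. Cells with at least 500 genes and at most 10% mitochondrial UMIs were kept. Scrublet (scanpy 1.11.5, expected rate 0.08) marked 3 L-cDC cells at its own threshold of 0.635 and 248 M-cDC cells at 0.258, so the lower was used for both and removed 143 and 248. Cells with 3 or more detected markers of any of 7 other lineages were left out. A class needed 2 detected markers and more than either other class.

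UMIs were summed per library and cell set. Ratios have exact conditional binomial 95% intervals, levels exact Poisson and shares exact Clopper-Pearson intervals. A gene was considered with at least 50 UMIs over both sets and counted at 1.5-fold; with 1 library per group there is no test or p-value. UMIs mark the 3′ ends of transcripts, so levels are compared within genes only. The calculation was tested on simulated counts of cycling and non-cycling sets with counting error only. Intervals held the true ratio for 96.1% of genes in L-cDC and 96.2% in M-cDC. Of 198 genes changed 2-fold, 186 and 193 passed 1.5-fold. Among unchanged genes 9.37% and 3.65% passed it too, in either direction. Variation between cells or animals was not simulated. Gene positions came from GENCODE vM21 (GRCm38).

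The 45 genes, the other lists and the rules were chosen with earlier results of these data known. Values are given in full for the 4 genes per role with the highest CPM in cycling cells, those past 1.5-fold between origins and those under 1.5-fold between cycling states in both libraries. The comparison of mature with cDC1-like cells, and the genes named in it or in passing, were chosen after their values were seen. One gene that the rule would name is not reported here. Alternatives covered the cycling rule, cell and gene filters, thinning, classes and the fold size. Python 3.11.15 was used with pandas 2.3.3, scipy 1.17.1 and numpy 2.4.6; figures used matplotlib 3.10.9.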

Additional observations from a re-analysis of the deposited data

Results flagged for a closer look

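Cells left out as another lineage held a signal that the comparisons above do not use. Of 246 such cells in L-cDC 39 were cycling (15.9%, 11.5 to 21.0), against 4.46% of the dendritic cells, and the 45 genes summed to 4914 CPM in them. Of these 39, 25 carried 3 or more NK markers, 9 T cell, 5 B cell, 1 macrophage and 1 plasma cell markers, some cells more than 1 kind. In M-cDC 0 of 28 were cycling, which allows a share of up to 10.7% by the limit of 3 counts and up to 12.3% by the exact 95% interval, overlapping that of L-cDC.

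In the split by G2/M share at 2 or more marker UMIs, Mcm6 had opposite signs in the libraries, while Mcm3 was lower in L-cDC and level in M-cDC. The log2 ratio of the low over the high set was -0.84 in L-cDC and 0.0048 in M-cDC for Mcm3, and -0.96 and 0.44 for Mcm6. These differences were not tested, and they rest on 1 library each.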

How the results depend on the processing

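No paired analysis was possible because the labels give no replicate numbers and each group is 1 library; for the same reason no library could be left out. The rule of 5 or more marker UMIs joined with a class, and the restriction to mature non-cycling cells, were added after seeing the data. Of the recomputed results that answer a comparison, 80 stayed within 1.5 times the count, or within the interval of the share, given above, and 54 did not. The counts of genes below stand without the share over all genes, except where that share is given above. The number of genes with enough UMIs also changed with the setting. A rise or fall of these counts alone therefore cannot be read as a result about the described genes.

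Share of cycling cells, L-cDC then M-cDC. It was 11.9% and 16.0% at 1 or more marker UMIs, 2.25% and 4.63% at 5 or more, 2.38% and 5.22% with both markers detected, and 1.98% and 4.27% after thinning. It was 13.4% and 18.7% in cDC1-like cells, 10.5% and 11.1% in cDC2-like cells, and 10.6% and 14.7% without mature cells.

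Genes higher in cycling L-cDC cells fell from 39 to 13 in cDC2-like cells and to 24 in cDC1-like cells at 5 or more marker UMIs, where fewer genes reached 50 UMIs.

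Genes lower in cycling L-cDC than M-cDC cells, 11 at 1.5-fold, were 0 at 2-fold, with all kept cells, in cDC2-like cells and without mature cells (also at 5 or more marker UMIs), 2 in cDC1-like cells (3 at 5 or more), 3 with both markers detected, 5 at 5 or more and 33 at 1 or more. The log2 ratio turned to 0.035 for Pola1 in cDC1-like cells (0.091 at 5 or more), and for Cdc45 to 0.45 in cDC2-like cells and 0.17 after thinning.

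Genes lower in non-cycling L-cDC cells, 1 at 1.5-fold, were 0 at 2-fold, 2 with 200 or 1000 genes per cell, 20 UMIs per gene, other CPM totals, doublets or other lineages kept, 3 with 5% mitochondrial UMIs or fewer than 2 other-lineage markers, 4 without mature cells, 5 after thinning, 6 in cDC2-like and 8 in cDC1-like cells. Pold1 turned to -0.24 in cDC1-like cells and to -0.28 without mature cells.

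The G2/M split was the least settled. Of the genes lower in the low set of L-cDC (34), 11 were left at 200 UMIs per gene, 4 at 5 or more marker UMIs, with both markers detected or without mature cells, 3 in cDC1-like cells, 1 after thinning and 0 in cDC2-like cells. In M-cDC (14) there were 42 at 1 or more marker UMIs, 6 at 2-fold or in cDC1-like cells, 3 without mature cells, and 0 in cDC2-like cells, at 5 or more, with both markers or after thinning. Log2 ratios that turned to higher in the low set follow. At 5 or more marker UMIs these were, in L-cDC, Mcm3 1.71, Mcm6 1.82, Pcna 0.76 and Dut 0.36, with medians of 0.88 (licensing), 0.43 (fork) and 0.45 (all), and in M-cDC Pcna 1.16, Dut 0.86, Pclaf 0.11 and Rrm2 0.041, with a nucleotide median of 0.081. With both markers detected they were, in L-cDC, Mcm3 1.64, Mcm6 1.81, Pcna 0.68 and Dut 0.39, with medians of 0.78, 0.36 and 0.39, and in M-cDC Pcna 0.82 and Dut 0.46. Without mature cells they were, in L-cDC, Mcm3 1.56, Mcm6 1.86, Pcna 0.96 and Dut 0.39, with medians of 1.15, 0.27 and 0.31, and in M-cDC Pcna 0.28 and Dut 0.15. In cDC1-like cells they were, in L-cDC, Mcm3 1.83, Mcm6 2.03, Pcna 0.73 and Dut 0.26, with medians of 0.90, 0.73 and 0.47, and in M-cDC Pcna 0.0021. In cDC2-like cells they were, in L-cDC, Mcm3 1.78, Mcm6 2.14, Pcna 2.20 and Dut 0.83, with medians of 0.83 (nucleotide) and 0.22 (all), and in M-cDC Pcna 0.85 and Dut 0.76. After thinning they were Mcm3 1.46, Mcm6 0.65 and Pcna 0.87 in L-cDC, and Pcna 0.95, Dut 0.30, Pclaf 0.013 and a nucleotide median of 0.22 in M-cDC. Apart from fewer cells or genes, the cause was not tested. With 31 and 17 cycling cDC1-like and cDC2-like cells in L-cDC, counting error limits the values within classes.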
